A study of Mus musculus with 17 samples.

Results

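The interferon regulatory factors (IRFs) are transcription factors that share a DNA-binding domain, and 8 of their genes, Irf1, Irf2, Irf3, Irf4, Irf5, Irf7, Irf8 and Irf9, are described here across 6 mouse genotypes. They were taken by gene symbol, as those gene rows of the count table whose Ensembl identifier maps to 1 of the 8 names, which gave 8 of 47643 gene rows. All 8 had enough counts to be tested. The rule used names and no measured value, but the family was chosen with earlier results of these data known.

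RNA came from mouse bone marrow cells purified by flow cytometry as cKit+ Lymph- Ery- HSPC, that is haematopoietic stem and progenitor cells that carry the cKit receptor and lack lymphoid and erythroid surface markers. Spi1, the gene of the transcription factor PU.1, has a distal enhancer called the upstream regulatory element (URE), which some of the mice lacked on 1 chromosome; Tet2, whose enzyme oxidises methylated cytosine, was lost from 1 chromosome (het) or from both (KO). Libraries labelled Normal were 3 of wild type (WT, URE+/+;Tet2+/+), 3 of URE het (URE[delta]/+;Tet2+/+), 3 of Tet2 het (URE+/+;Tet2+/-) and 3 of Tet2 KO (URE+/+;Tet2-/-). Libraries labelled acute myeloid leukaemia (AML) were 2 of URE het Tet2 het (URE[delta]/+;Tet2+/-) and 3 of URE het Tet2 KO (URE[delta]/+;Tet2-/-) and no compound mutant was labelled Normal, so the disease cannot be told apart from the genotype. Ages were described only as matched, and the labels give no sex, treatment or Cre driver. Whether the libraries stem from separate mice is not stated, so p-values measure the spread between these libraries, which may be technical.

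IRFs bind DNA elements built on repeats of the letters GAAA, such as the interferon-stimulated response element (ISRE). Irf3, Irf5 and Irf7 lie in the cytoplasm until sensors of microbial nucleic acid trigger their phosphorylation, and they then switch on type I interferon genes; Irf9 carries the signal of the interferon receptor to DNA, and Irf1 and Irf2 bind the same elements as activator and as antagonist. Irf4 and Irf8 act mainly in blood cells, where they bind composite elements (EICE) together with PU.1 or its relative Spib, and Irf8 is known for steering myeloid progenitors toward monocytes and dendritic cells.

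The DNA just before the transcription start shows which of these genes carry a short interferon motif next to the start. The RefSeq promoter table (GRCm38.p6) held 11 start windows for the 8 genes, and in each the 250 bases before the start were searched on both strands for 4 motifs. These were the ISRE as GAAA and again GAAA after any 2 bases, the EICE as GGAA and then GAAA after any 2 bases, the gamma-activated site (GAS) as TTCNNNGAA and a PU.1 site as GAGGAAGT, in which the ISRE and the EICE can overlap. Among all 32851 windows of this length 2.98% held the ISRE, 2.30% the EICE, 7.02% the GAS and 2.44% the PU.1 letters. Shown are Irf4 and Irf8, on which the expression results turn, and Irf1 and Irf2, the other members with a match; capitals mark every match.
Irf4 (chr13:30748983-30749232, + strand): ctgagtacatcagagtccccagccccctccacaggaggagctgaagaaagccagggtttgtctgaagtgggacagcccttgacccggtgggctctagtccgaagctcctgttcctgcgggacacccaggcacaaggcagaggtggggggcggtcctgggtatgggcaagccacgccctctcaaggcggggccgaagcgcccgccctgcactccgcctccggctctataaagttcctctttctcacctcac
Irf8 (chr8:120736108-120736357, + strand): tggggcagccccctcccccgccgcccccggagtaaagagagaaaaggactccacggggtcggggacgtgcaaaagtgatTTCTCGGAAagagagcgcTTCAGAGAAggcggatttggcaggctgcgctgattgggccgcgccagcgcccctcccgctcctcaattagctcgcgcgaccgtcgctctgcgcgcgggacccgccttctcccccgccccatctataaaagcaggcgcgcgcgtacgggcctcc
Irf1 (chr11:53769764-53770013, + strand): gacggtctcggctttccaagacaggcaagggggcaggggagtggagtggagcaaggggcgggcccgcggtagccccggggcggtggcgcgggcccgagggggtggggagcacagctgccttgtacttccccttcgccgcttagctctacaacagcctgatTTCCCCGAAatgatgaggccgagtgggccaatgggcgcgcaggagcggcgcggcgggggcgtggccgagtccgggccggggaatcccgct
Irf2 (chr8:46739495-46739744, + strand): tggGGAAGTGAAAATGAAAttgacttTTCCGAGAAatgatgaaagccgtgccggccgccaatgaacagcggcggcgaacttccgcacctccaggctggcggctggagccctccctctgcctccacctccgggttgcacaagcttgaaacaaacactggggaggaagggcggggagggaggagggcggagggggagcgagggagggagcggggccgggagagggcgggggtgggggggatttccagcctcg

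A GAS match lay in the windows of Irf1, Irf2 and Irf8, with Irf8 holding a pair of them, TTCTCGGAA from 171 bases and TTCAGAGAA from 153 bases before the start. Irf1, a classical target of interferon gamma signalling, held TTCCCCGAA from 90 bases before the start. Irf2 alone held an ISRE and an EICE, GAAAATGAAA and GGAAGTGAAA, which overlap each other. No match to any of the 4 motifs was found in the window printed for Irf4, nor in those of Irf3, Irf5, Irf7 and Irf9, and the PU.1 letters occurred in none of the 11 windows. A match is a description of letters, not of a bound site.

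Total gene counts ran from 21.1 M to 38.3 M per library, and levels are given as CPM, the share of a library's counts after trimmed-mean scaling. Kit RNA, the marker of the sort, was present in every library (99.97 to 187 CPM in Normal, 117 to 170 in AML), while a list of 9 T and NK cell markers summed to 66.5 to 159 CPM in Normal and 19.2 to 93.1 in AML, and 7 erythroid markers to 2.56 to 43.1 and 0.635 to 12.7 CPM. Spi1 lay between 45.3 and 137 CPM in the 12 Normal libraries and at 21.6, 34.9, 98.6, 7.83 and 12.2 CPM in the 5 AML libraries, the 98.6 being replicate 1 of URE het Tet2 KO. Tet2 RNA ran from 80.2 to 86.3 CPM in Tet2 KO and from 92.5 to 176 CPM in the other Normal libraries. In AML it was not low, at 112, 113 and 176 CPM in URE het Tet2 KO and 234 and 156 CPM in URE het Tet2 het. WT had 108 to 133 CPM. Counts over whole genes check neither deletion. Several AML libraries stood apart. In replicates 2 and 3 of URE het Tet2 KO, and in replicate 1 of URE het Tet2 het, 485 genes of chromosome 2 between 60 and 160 Mb had a median of 52.9% to 55.0% of their Normal level, against 91.9% to 103% in all other libraries; none of the 8 IRF genes lies on chromosome 2. Cd34, a progenitor marker, was at 0.0650 to 0.545 CPM in these 3 libraries and at 59.4 to 145 CPM in Normal. The same 3 libraries had the lowest Spi1, at 21.6, 7.83 and 12.2 CPM. The part of the chromosome 2 stretch in these Spi1 levels was not tested. Libraries are also numbered 1 to 17 in their titles, and many genes, IRFs included, differ between numbers 1 to 7 and 8 to 17; the labels do not call this a batch.

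Between genes, levels were set side by side as CPM per kb of exon. The 12 Normal libraries had a summed IRF level of 19.4 to 40.7 CPM per kb with a median of 25.8, and the 5 AML libraries 15.8 to 37.0 with a median of 31.7. Irf3 was the largest part in Normal libraries, with a median share of 23.7% (17.9% to 28.3%) of the summed level per kb. Irf2 followed at 18.9% (12.5% to 23.8%), Irf8 at 16.8% (10.3% to 27.9%), Irf9 at 15.6% (9.52% to 22.4%) and Irf1 at 11.7% (8.78% to 14.99%), and these ranges overlap. Irf7 had 7.36% (4.23% to 21.6%), Irf5 4.75% (2.68% to 5.87%) and Irf4 1.66% (0.402% to 2.59%). The progenitors thus held mostly the widely expressed members and Irf8, and little Irf4 or Irf5. In AML the spread of the shares was wider for Irf8, from 4.14% to 45.1%, and the share of Irf4 lay between 0.0546% and 0.292%, below every Normal library.

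**Figure D1:**
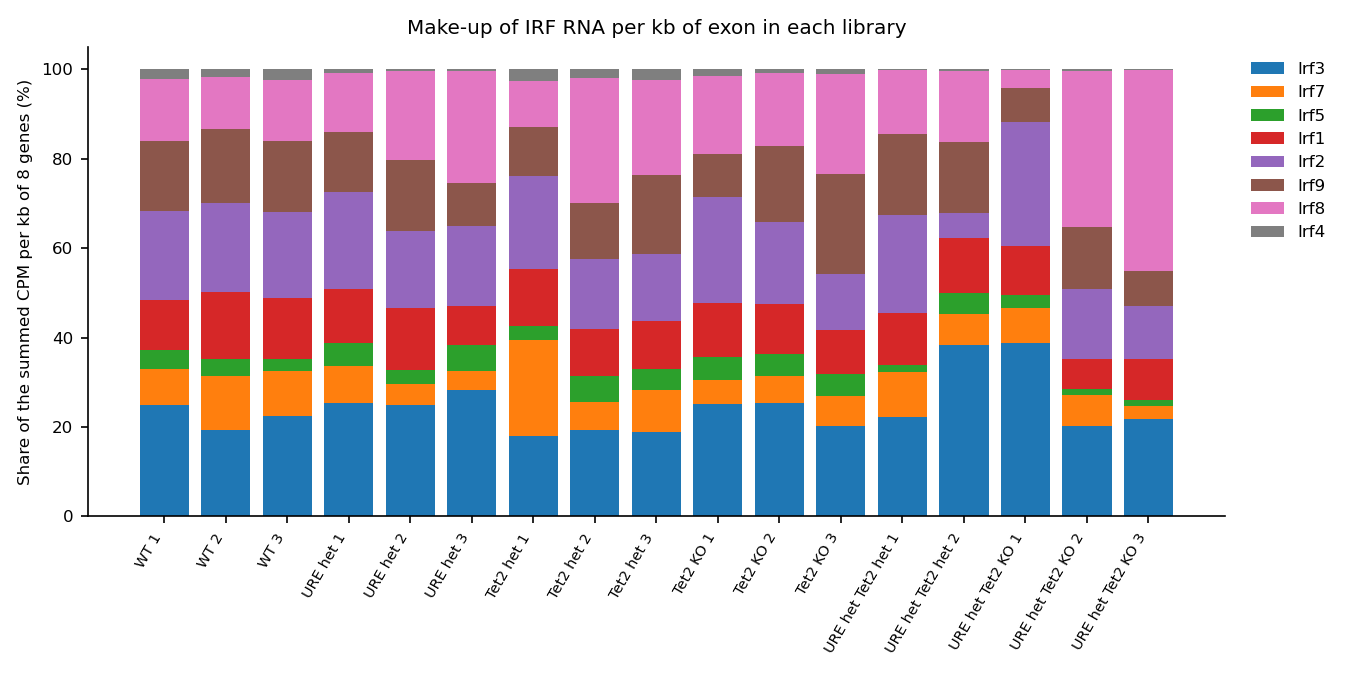
Share of each of the 8 genes in the summed CPM per kb of exon (vertical axis, percent) in each of the 17 libraries, ordered by genotype. Irf8 takes 35.1% and 45.1% in URE het Tet2 KO replicates 2 and 3 and 4.14% in replicate 1, while Irf4 is hardly visible in any AML library.

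Across the family, the 5 leukaemic libraries were compared with the 12 others. Irf4 was the member that fell: it was 5.92-fold lower in AML and the 1 member of 8 that passed the test (edgeR quasi-likelihood F test, adjusted p under 0.05). Over all 19951 genes tested 11% passed in this comparison, 4.02% as lower and 6.94% as higher. DESeq2 called 2 members, Irf4 and Irf5, and 3255 of the 19951 genes. The median log2 fold change was -0.18 over the 8 members and 0.05 over all genes tested, with 6 members below 0 and 2 above. For no member did the 5 AML libraries lie wholly apart from the 12 Normal ones, as 1.52% of all genes did (0.692% as lower). In bulk RNA, fewer cells of a type and less RNA per cell cannot be told apart.

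**Figure D2:**
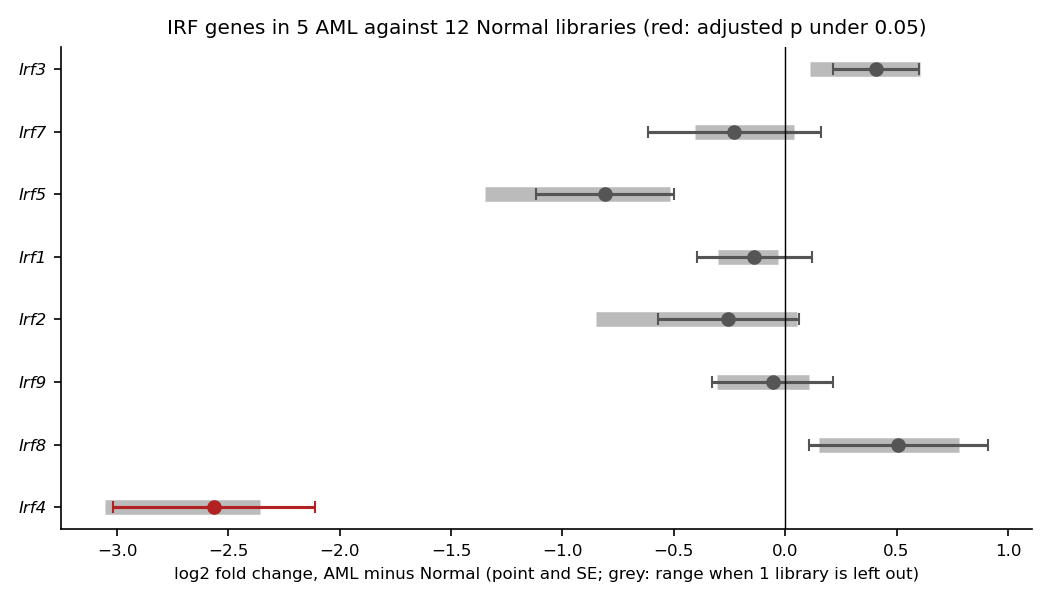
Log2 fold change of each gene in 5 AML against 12 Normal libraries (horizontal axis; point and SE), with the range when each library in turn is left out in grey and genes with adjusted p under 0.05 in red. Irf4 lies at -2.57 and stays between -3.05 and -2.36, while the ranges of Irf2, Irf7 and Irf9 cross 0.

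The sensor-driven members differed from one another. Irf3, which starts the first wave of interferon beta after viral RNA or DNA is sensed, was at 24.2, 27.0 and 16.05 CPM in WT, 27.1, 20.2 and 18.9 in URE het, 24.6, 14.9 and 17.9 in Tet2 het and 27.8, 18.5 and 16.7 in Tet2 KO. URE het Tet2 het gave 24.7 and 48.8 CPM, and URE het Tet2 KO gave 21.1, 19.2 and 23.6. Only URE het Tet2 het replicate 2 lay above the Normal libraries. The AML difference was 0.41 ± 0.19 (log2 fold change ± SE, edgeR adjusted p = 0.197). Within libraries 8 to 17 it was 0.89 (adjusted p = 0.00284), and within 1 to 7 it was -0.22 (adjusted p = 0.402). In Tet2 het cells the URE deletion went with 1.92-fold more Irf3 (log2 fold change 0.94 ± 0.33, adjusted p = 0.238), with both compound libraries above the 3 Tet2 het ones; 25.1% of all genes tested did not overlap there, in either direction. The lower compound library, at 24.7 CPM, was level with the highest Tet2 het library at 24.6, and leaving out the compound library at 48.8 CPM gave a log2 fold change of 0.35, leaving out the one at 24.7 CPM 1.34.

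Irf7, the amplifier of the interferon response and itself induced by interferon, ran from 3.09 to 32.5 CPM among Normal libraries. Its levels were 8.52, 18.6 and 7.74 CPM in WT, 9.82, 4.15 and 3.09 in URE het, 32.5, 5.21 and 9.87 in Tet2 het, and 6.68, 4.82 and 6.09 in Tet2 KO. The 5 AML libraries gave 12.4 and 9.85 CPM (URE het Tet2 het) and 4.69, 7.05 and 3.66 (URE het Tet2 KO), all inside the Normal range. The AML difference was -0.23 ± 0.39 (edgeR adjusted p = 0.764) and turned to 0.039 without Tet2 het replicate 1, the library at 32.5 CPM. All 3 Tet2 KO libraries lay below all 3 WT libraries for Irf7, as 5.34% of all genes tested did.

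Irf5 acts below Toll-like receptors and drives inflammatory cytokine genes in macrophages. WT libraries held 3.46, 4.65 and 1.61 CPM, URE het 4.80, 2.19 and 3.20, Tet2 het 3.57, 3.82 and 3.81, and Tet2 KO 4.70, 2.99 and 3.32. URE het Tet2 KO gave 1.31, 1.03 and 1.27 CPM, below all 12 Normal libraries. URE het Tet2 het was split, with 1.59 CPM in replicate 1, just under the lowest Normal library, and 5.01 CPM in replicate 2, above the highest. So 4 of 5 AML libraries were low and the fifth was the highest of all 17. The AML difference of Irf5 was -0.81 ± 0.31 (edgeR adjusted p = 0.108), which passed with DESeq2 (-0.84, adjusted p = 0.0378) and, in edgeR, when the library at 5.01 CPM was left out (-1.35, adjusted p = 0.0152). In Tet2 KO cells the URE deletion went with 3.04-fold less Irf5 (-1.61 ± 0.46, edgeR adjusted p = 0.0991, DESeq2 adjusted p = 0.0147), and the groups did not overlap, as 9.59% of genes lay lower without overlap in that comparison. Against URE het the same libraries were 2.82-fold lower (-1.49 ± 0.46, edgeR adjusted p = 0.141, DESeq2 adjusted p = 0.0310), again without overlap, where 9.63% of genes lay lower; both comparisons use the same 3 URE het Tet2 KO libraries. URE het itself was level with WT in these units, at 3.40 ± 1.31 against 3.24 ± 1.53 CPM (SD, n = 3 each). For Irf5 the interaction of URE deletion with Tet2 KO was -1.67 ± 0.64 (edgeR adjusted p = 0.537).

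Irf1, an activator induced by interferon gamma, and Irf2, which competes for the same sites, showed no called difference. Irf1 lay between 6.76 and 24.3 CPM in Normal (median 12.3), with 12.8, 24.3 and 11.3 CPM in WT. URE het Tet2 het gave 14.9 and 18.2 CPM and URE het Tet2 KO 6.81, 7.43 and 11.5, so the compound groups did not overlap, as 17% of all genes tested did not in either direction (9.68% as lower in URE het Tet2 KO). The AML difference of Irf1 was -0.14 ± 0.26 (edgeR adjusted p = 0.787), with 0.34 (adjusted p = 0.325) within libraries 8 to 17. Irf2 ran from 22.2 to 61.8 CPM in Normal (median 30.4), and from 14.9 to 52.7 CPM in AML, where URE het Tet2 het replicates 1 and 2 were the highest and the lowest. Its AML difference was -0.26 ± 0.32 (edgeR adjusted p = 0.666) and 0.055 without URE het Tet2 het replicate 2.

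Irf9, the DNA-binding subunit of the ISGF3 complex that carries type I interferon signals, ran from 10.02 to 36.4 CPM in Normal with a median of 21.3. URE het Tet2 het gave 31.7 and 31.8 CPM, above all 3 Tet2 het libraries (23.4, 15.2 and 26.4), in a comparison where 25.1% of all genes tested did not overlap in either direction. URE het Tet2 KO gave 6.43, 20.5 and 13.2 CPM, with replicate 1 below every other library. These opposite positions left AML against Normal at -0.06 ± 0.27 (edgeR adjusted p = 0.926), with either sign when single libraries were left out (-0.31 to 0.11).

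**Figure D3:**
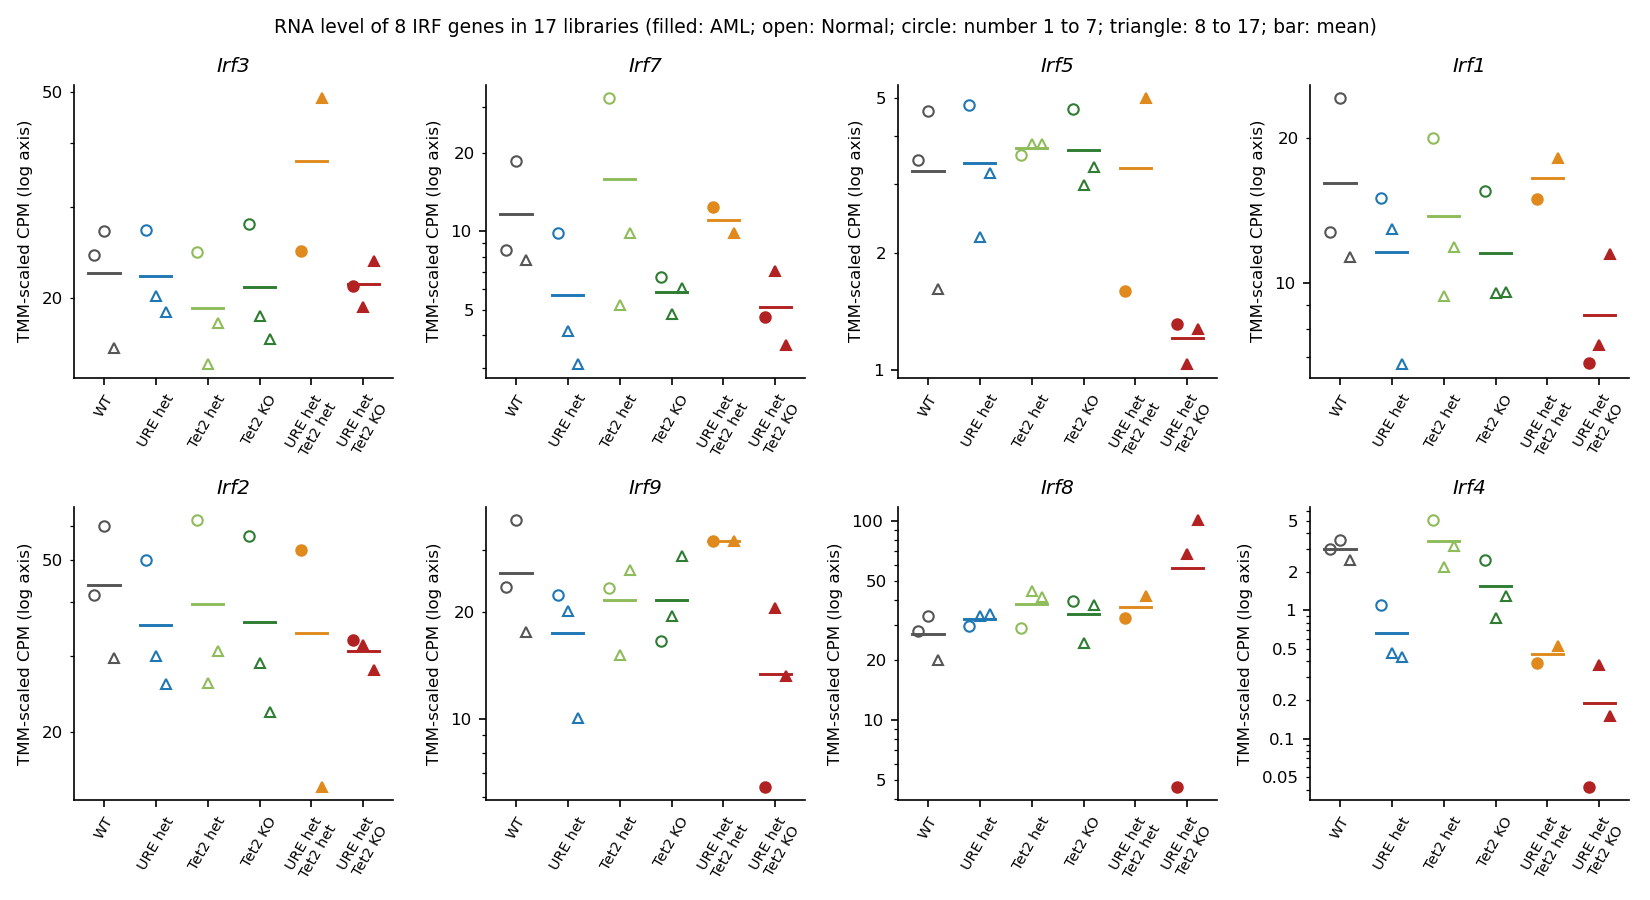
RNA level of each gene (vertical axis, CPM on a log axis) in the 17 libraries by genotype; filled symbols are AML, circles are title numbers 1 to 7, triangles 8 to 17, and bars are arithmetic means. Irf4 is low in every group with the URE deletion, Irf5 is low in URE het Tet2 KO, and Irf8 is split within URE het Tet2 KO between 4.61 and 101 CPM.

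Irf8 (ENSMUSG00000041515.9, chr8:120736358-120756694, plus strand, GRCm38) had the widest spread of the 8 members in AML, by the ratio of the highest to the lowest level. Normal libraries lay within a narrow span, with 27.8, 33.0 and 19.9 CPM in WT, 29.5, 33.2 and 34.0 in URE het, 28.9, 44.2 and 41.5 in Tet2 het, and 39.5, 24.3 and 37.5 in Tet2 KO. URE het Tet2 het was inside it at 32.4 and 41.6 CPM. URE het Tet2 KO was far outside it in both directions, at 4.61 CPM in the first replicate and at 68.0 and 101 CPM in the other two. The AML difference was 0.51 ± 0.40 (edgeR adjusted p = 0.462), and it depended on which libraries were compared. With each of the 17 libraries left out in turn it ran from 0.15 to 0.78 and passed in 1 fit. Leaving out replicate 1 of URE het Tet2 KO gave 0.78 (adjusted p = 0.00619), and within libraries 8 to 17 it was 0.95 (adjusted p = 0.00652). Within libraries 1 to 7 it was -1.40 (adjusted p = 0.00092), where the 2 AML libraries are that replicate at 4.61 CPM and URE het Tet2 het replicate 1 at 32.4 CPM. Setting only the 3 libraries with the low chromosome 2 stretch against Normal gave 0.67 (adjusted p = 0.0198), and setting the other 2 AML libraries against Normal gave -1.27 (adjusted p = 0.0288). Against Tet2 KO alone the URE het Tet2 KO group stood at 0.77 ± 0.63 (adjusted p = 0.623), or 1.32 without replicate 1 (adjusted p = 0.0122), and against URE het at 0.84 ± 0.63 (adjusted p = 0.586), or 1.39 without it (adjusted p = 0.00999). With other libraries left out they fell as low as 0.099 and 0.17 (edgeR adjusted p up to 0.984 and 0.970). Without replicate 1, edgeR called 1799 and 1789 of 19868 genes in these 2 comparisons, against 195 and 71 of 19951 with it.

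Other genes also set these libraries apart. URE het Tet2 KO replicate 1, with the lowest Irf8, had 98.6 CPM of Spi1. Replicates 2 and 3, with the highest Irf8 and the low chromosome 2 stretch, had 7.83 and 12.2 CPM. Of 11 monocyte markers 1 was higher and 2 were lower in AML, where 6.94% and 4.02% of all genes tested were. The 11 markers summed to 5684 to 14726 CPM in Normal and 2593 to 8797 CPM in AML (4182 CPM where Irf8 was lowest), and none was at 0 in any AML library. Much of the sum was Lyz2, a lower marker, at a mean of 7521 CPM in Normal and 2587 CPM in AML. F13a1, the higher marker, was at 2392 and 1372 CPM where Irf8 was highest and 335 CPM where it was lowest. URE het Tet2 het had 1266 and 172 CPM of F13a1, and Normal libraries 94.8 to 306 CPM. Of 11 markers of conventional dendritic cells, a lineage in which Irf8 and Irf4 act, none was higher and 7 were lower, and the sum ran from 148 to 391 CPM in Normal and from 63.0 to 152 CPM in AML. The sums were 63.0 and 89.8 CPM in the replicates with the highest Irf8. The part of these cell types in the Irf8 levels was not tested.

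**Figure D4:**
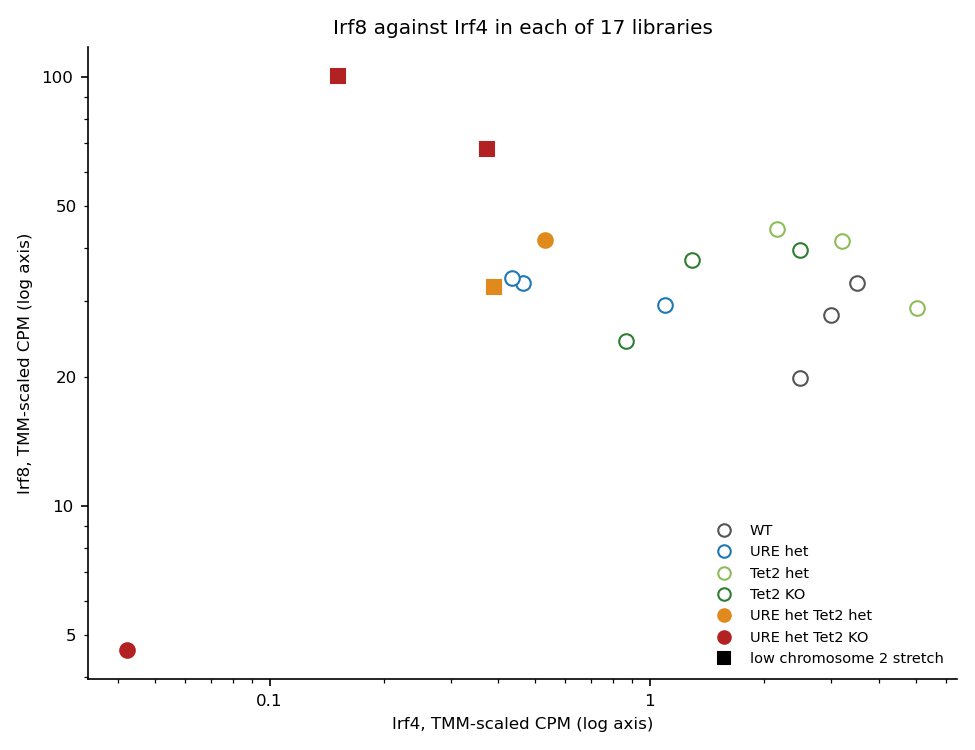
Irf8 (vertical axis) against Irf4 (horizontal axis), both in CPM on log axes, for each of the 17 libraries; filled symbols are AML and squares have the low chromosome 2 stretch. Normal libraries span 0.433 to 5.06 CPM of Irf4 at 19.9 to 44.2 CPM of Irf8, and URE het Tet2 KO reaches both the highest and the lowest Irf8.

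Per kb, the ratio of Irf8 to Irf4 was 3.97 to 54.6 in Normal libraries (median 12.6) and 54.5 to 463 in AML (median 75.8). URE het replicates 2 and 3, at 49.5 and 54.6, had the highest ratios among Normal libraries and reached the lowest AML ratio. 

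Irf4 (ENSMUSG00000021356.9, chr13:30749226-30766976, plus strand, GRCm38), which works in B cells, plasma cells and dendritic cells, was scarce in all libraries and lowest where the URE was deleted. WT libraries had 2.99, 3.51 and 2.49 CPM, Tet2 het 5.06, 2.16 and 3.20, and Tet2 KO 2.48, 0.865 and 1.29. URE het had 1.10, 0.465 and 0.433 CPM, URE het Tet2 het 0.390 and 0.531, and URE het Tet2 KO 0.0423, 0.373 and 0.151. The smallest value rests on 1 count and the other AML values on 5 to 25 counts, so counting error adds to the spread between libraries there. By mean level the order was Tet2 het, WT, Tet2 KO and URE het, followed by URE het Tet2 het and, lowest, URE het Tet2 KO. Of neighbours in that order WT and Tet2 KO, and the 2 compound genotypes, did not overlap, while the other neighbours did; of all genes tested, 9.52% did not overlap between the first pair and 17% between the second. WT and Tet2 KO were apart by 2.49 against 2.48 CPM only. The AML fall was -2.57 ± 0.45 (edgeR adjusted p = 0.00346), and it passed with each of the 17 libraries left out in turn (adjusted p 0.00185 to 0.0276). It did not pass with a term for the sex read from sex-linked genes, which drops 2 of the 5 AML libraries (-3.00, adjusted p = 0.0812); that fit called 45 genes in all, against 2188 without the term.

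The low Irf4 was present with the URE deletion in each Tet2 background, with differing support. URE het was 4.51-fold lower than WT (-2.17 ± 0.59), and its 3 libraries lay below all 3 WT libraries, as 6.8% of genes tested did. The edgeR adjusted p was 1; in this comparison 0% of genes passed edgeR, and Irf4 was the 1 member with an unadjusted p under 0.05. DESeq2 called no member either. A fit of the 12 Normal libraries with a term for the range of title numbers was added after the data were seen. It gave -1.97 (edgeR adjusted p = 0.0438), where 16 of 18282 genes passed. The same fit without that term called 0 of 18282 genes. Irf4 passed in 1 of 8 alternative settings of this comparison, and in 0 of 6 fits that left out a library. In Tet2 het cells the level with the deletion was 7.43-fold lower (-2.89 ± 0.72, edgeR adjusted p = 0.137, DESeq2 adjusted p = 0.000775), without overlap, where 12.3% of genes lay lower. In Tet2 KO cells it was 7.73-fold lower (-2.95 ± 0.64, edgeR adjusted p = 0.0446), where 0.977% of all genes passed (0.581% as lower), and Irf4 was the 1 member of 8 called. That last call ended without any 1 of the 3 Tet2 KO libraries or of URE het Tet2 KO replicates 2 and 3 (adjusted p up to 0.147). For Irf4 the interaction of URE deletion with Tet2 KO was -0.78 ± 0.84 (edgeR adjusted p = 0.875).

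All 8 libraries with the URE deletion can be set against the 9 with an intact URE. This comparison was added after the data were seen and averages over the Tet2 genotypes. The 8 include all 5 AML libraries and the 9 include none, so it does not separate the deletion from the disease. Irf4 was then 6.37-fold lower (-2.67 ± 0.38, edgeR adjusted p = 0.00529), in a comparison where 3.61% of genes passed (1.67% as lower, 1.94% as higher), and no other member passed. It ran from 0.0423 to 1.10 CPM with the deletion (median 0.412) and from 0.865 to 5.06 CPM without it (median 2.49). The ranges met only through URE het replicate 1 and Tet2 KO replicate 2. The call held with each library left out (adjusted p 0.00138 to 0.0163). Spib, the relative of PU.1 that pairs with Irf4 on composite elements, ran from 1.21 to 3.02 CPM in WT and from 0.256 to 0.520 CPM in URE het (edgeR adjusted p = 1; 6.8% of genes lay lower without overlap), and was 4.52-fold lower in AML (-2.18 ± 0.50, adjusted p = 0.0135). Spi1 in URE het was 45.3 to 90.9 CPM against 55.8 to 122 CPM in WT, and these ranges overlap.

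The sort was meant to remove lymphoid cells, and markers of cell types in which Irf4 is abundant moved with it in part. Of 13 B lineage markers 9 were lower and 1 was higher in AML, of 5 tested plasma cell markers 2 were lower and 1 higher, and of 8 tested markers of plasmacytoid dendritic cells 3 were lower. Over all genes tested 4.02% were lower and 6.94% higher in this comparison. Summed levels of the B lineage list were 24.2 to 78.2 CPM in Normal and 7.23 to 244 CPM in AML, the high end being Igll1 at up to 241 CPM. The other 2 sums were not lower in AML by their medians. The plasmacytoid dendritic sum had a median of 199 CPM in AML and 181 in Normal, and the plasma cell sum 179 and 117. Most of the plasma cell sum was Xbp1, the higher marker, at a mean of 93.2 CPM in Normal and 214 CPM in AML. By median log2 fold change the tested plasma cell markers stood at -1.31 and the plasmacytoid dendritic ones at -1.37, beside 0.05 over all genes tested. Among AML libraries Pax5 and Rag1 were each at 0 in 4 of 5, and Cd209a in 4 of 5; no B lineage, plasma cell or dendritic marker was at 0 in all 5. In URE het the B lineage sum was 54.4, 38.4 and 32.9 CPM against 61.8, 70.0 and 72.2 in WT, and the conventional dendritic sum was 199, 165 and 162 CPM against 169, 188 and 213. The plasmacytoid dendritic sum was 180, 120 and 142 CPM in URE het against 186, 195 and 183 in WT, below it by 180 against 183 CPM only. Siglech, a surface lectin of plasmacytoid dendritic cells, was at 0.147, 0.864 and 0.722 CPM in URE het against 4.23, 6.37 and 4.51 in WT. It was thus low in the same genotype as Irf4, and 6.8% of genes tested lay lower without overlap there. Of the 3 plasmacytoid markers called in AML, Cox6a2 also lay lower in URE het (0.199 to 0.289 against 0.648 to 1.04 CPM), while Ly6d overlapped WT. The part of such cells in the Irf4 level was not tested.

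In the single Tet2 mutants no member passed edgeR or DESeq2 against WT, and none had an unadjusted edgeR p under 0.05; 0% of genes passed edgeR in either comparison. Irf4 in Tet2 KO, at 0.865 to 2.48 CPM, lay just below its WT range of 2.49 to 3.51 CPM. Tet2 het overlapped WT for all 8 members, where 4.98% of genes lay lower without overlap. Neither the interaction (0% of genes passed, 1 member with an unadjusted p under 0.05, none by DESeq2) nor URE het Tet2 het against Tet2 het (0% of genes, 2 members with an unadjusted p under 0.05, 1 by DESeq2) gave an edgeR call among the members. Against URE het, the URE het Tet2 KO group gave none either, where 0.356% of genes passed, with 2 members at an unadjusted p under 0.05 and 1 called by DESeq2.

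Both compound genotypes were labelled AML, and between them 6 of 8 members lay lower in URE het Tet2 KO without overlap (3 libraries against 2), where 9.68% of all genes tested did. Irf9 was lower by a log2 fold change of -1.25 ± 0.45 (edgeR adjusted p = 0.320), Irf5 by -1.46 ± 0.50 (adjusted p = 0.304), Irf1 by -0.95 ± 0.43 (adjusted p = 0.408) and Irf3 by -0.79 ± 0.33 (adjusted p = 0.377). No member passed edgeR or DESeq2, 4 had an unadjusted p under 0.05, and 0.01% of all genes passed. Without URE het Tet2 het replicate 1, which leaves a single library in that group, Irf5 stood at -2.05. Over the 5 fits that left out a library in turn it ran from -2.05 to -0.39. Irf4 and Irf7 were the other members without overlap, while Irf2 and Irf8 overlapped.

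The genes around the IRFs were followed in AML against Normal through lists of known partners. Over all genes tested 6.94% were higher and 4.02% lower in this comparison. Of 10 interferon genes only 2 had enough counts to be tested, neither was called, and 6 had 0 counts in all 17 libraries; the sum over the list was at most 1.35 CPM. Of 11 interferon receptor and JAK-STAT genes 2 were higher. Ifngr1, a chain of the interferon gamma receptor, rose 3.02-fold, from 175 ± 38.3 CPM (SD, n = 12) to 566 ± 281 CPM (n = 5), adjusted p = 0.0017, with URE het Tet2 het replicate 2 inside the Normal range at 165 CPM. Tyk2, a kinase of the type I receptor, rose 1.46-fold (adjusted p = 0.0366). Among 19 sensors, adaptors and kinases above Irf3, Irf5 and Irf7, Tlr7, an endosomal RNA receptor, was 4.05-fold higher (adjusted p = 0.00883), at 14.9 ± 4.66 CPM in Normal and 58.7 ± 48.7 CPM in AML. URE het Tet2 het replicate 2, at 6.60 CPM of Tlr7, lay below every Normal library, and the other 4 AML libraries, at 27.4 to 133 CPM, above every one. Ikbke, a kinase of Irf3 and Irf7, was 1.87-fold higher (edgeR adjusted p = 0.00747). Its 5 AML libraries (35.51 to 83.1 CPM) lay above the Normal ones (18.1 to 35.45 CPM), apart by 35.51 against 35.45 CPM only. Of all genes tested 1.52% did not overlap there, in either direction. Tlr3, the receptor for double-stranded RNA, was 9.03-fold lower (adjusted p = 0.00872), at 3.36 ± 4.08 CPM in Normal and 0.342 ± 0.452 CPM in AML. The other 16 of these did not pass.

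Downstream, 31 interferon-stimulated targets had a median log2 fold change of 0.14, beside 0.05 over all genes tested. Of these targets 1 was higher and 1 lower, where 6.94% and 4.02% of all genes tested were. Nlrc5, the activator of MHC class I genes, rose 2.21-fold (adjusted p = 0.0294), from 20.2 ± 5.99 to 43.8 ± 21.5 CPM, although URE het Tet2 KO replicate 1, at 9.89 CPM, lay below every Normal library. Ciita, the activator of MHC class II genes, fell 6.62-fold (adjusted p = 0.0163), from 3.67 ± 3.38 to 0.515 ± 0.754 CPM; the other 29 did not pass. The list summed to 273 to 666 CPM in Normal and 252 to 773 CPM in AML, with the lowest sum in URE het Tet2 KO replicate 1, which also had the least Irf9. Of 13 DNA-binding partners of Irf4 and Irf8, Spib was the 1 called, where 11% of all genes tested passed. Of 3 IRF corepressors (Irf2bp1, Irf2bp2 and Irf2bpl) none was called.

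Genes whose log2 CPM followed a member most closely over the 17 libraries were sought among 9875 protein-coding genes. For Irf4 these were Epsti1 (r = 0.93), Ccnd1 (0.90) and Jchain (0.90), and over the 12 Normal libraries r was 0.87, 0.83 and 0.83. For Irf9 they were Ifi27 (0.95), Rtp4 (0.92) and Oasl2 (0.90), with 0.93, 0.89 and 0.88 in Normal. Both sets kept r at 0.82 or more within numbers 1 to 7 and within 8 to 17. Irf8 was followed by Plekha1 (0.89), Ly86 (0.88) and Sgcb (0.88), which in Normal libraries fell to 0.54, 0.55 and 0.17, so the AML libraries carry this likeness. Irf5 had Rere (0.90), Il10ra (0.90) and Cul7 (0.90), with 0.74, 0.73 and 0.63 in Normal. Irf3 had Cdk5 (0.95), Hmg20b (0.93) and Lrrc45 (0.92), where r within numbers 1 to 7 was 0.53, 0.24 and -0.09. The nearest genes were Arl4c, Csnk1e and Klf4 for Irf1 (0.87 to 0.88), Ehd1, Ostf1 and Aes for Irf2 (0.94 to 0.95), and Creb3, Phc1 and Sertad1 for Irf7 (0.83 to 0.87). These values describe 17 libraries that share genotypes, depth and number ranges, and carry no test.

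The range of title numbers moved most members among Normal libraries. In a fit of the 12 Normal libraries with genotype and range, 6 of 8 members were lower in numbers 8 to 17, where 36.4% of 18282 genes passed in either direction. The differences were -1.21 ± 0.31 for Irf7, -0.98 ± 0.12 for Irf2, -0.92 ± 0.22 for Irf4, -0.74 ± 0.18 for Irf1, -0.66 ± 0.22 for Irf5 and -0.60 ± 0.09 for Irf3 (log2, ± SE, edgeR adjusted p from 4.7e-05 for Irf2 to 0.0327 for Irf5). Irf8 (-0.06 ± 0.17, adjusted p = 0.817) and Irf9 (-0.26 ± 0.27, adjusted p = 0.497) did not pass. Irf2 was at 41.5 to 61.8 CPM in the 5 Normal libraries of the lower numbers and 22.2 to 30.8 CPM in the 7 of the higher ones, and Irf3 at 24.2 to 27.8 and 14.9 to 20.2 CPM. For both, the ranges did not overlap, as for 16.6% of all genes tested. Each genotype has libraries in both number ranges, but not in equal parts. WT has numbers 1, 2 and 8, URE het 3, 9 and 10, Tet2 het 5, 11 and 12, and Tet2 KO 4, 13 and 14. WT thus leans to the lower numbers and the single mutants to the higher ones. Over 8 alternative settings, some with a range term, Irf7 in Tet2 KO against WT ran from -0.99 to -0.50. Irf4 in URE het against WT ran from -2.18 to -1.97.

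**Figure D5:**
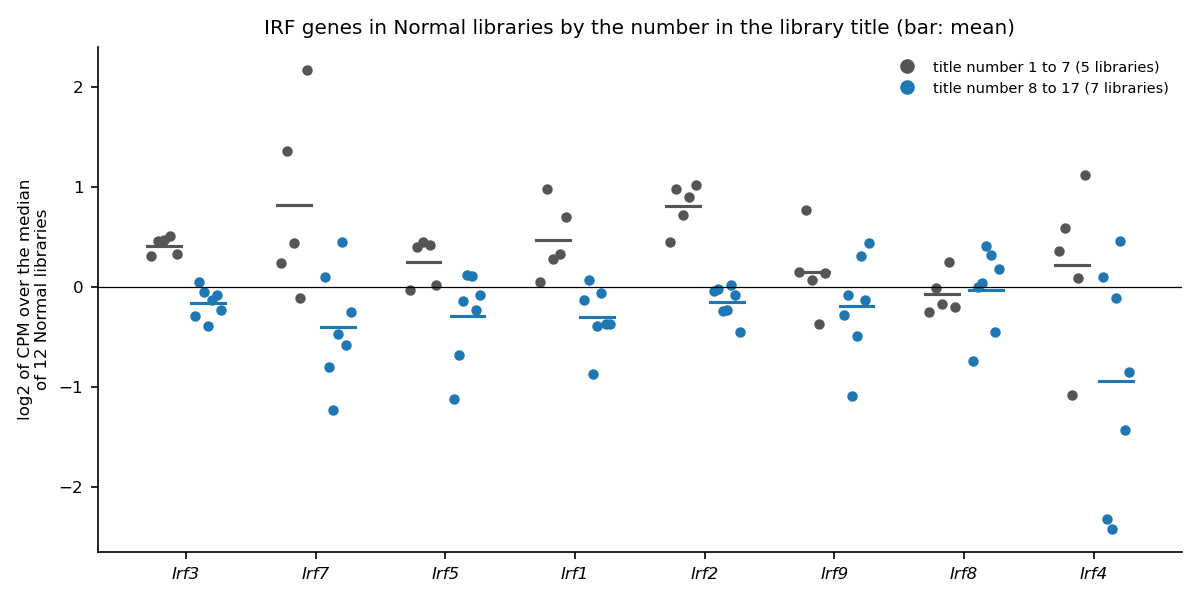
Each gene in the 12 Normal libraries, as log2 of CPM over the median of the 12 (vertical axis), for title numbers 1 to 7 (grey, 5 libraries) and 8 to 17 (blue, 7 libraries); bars are means. Irf2 and Irf3 separate fully by range, while Irf8 lies at the same level in both.

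A further set of rows carries a gene's identifier with the ending enh; their coordinates and meaning are not given in the sources used here. There were 43 such rows for the IRF genes among 42055, with 13 for Irf4, 12 for Irf2, 9 for Irf8, 5 for Irf1, 2 for Irf5, 1 each for Irf3 and Irf7, and 0 for Irf9. Of these, 27 had enough counts to be tested in AML against Normal and 0 passed edgeR, where 4.04% of 19861 rows did; 2 had an unadjusted p under 0.05, and DESeq2 was not run on these rows. Those 2 were the row of Irf3 (1.02 ± 0.46, adjusted p = 0.238) and the row of Irf7 (1.10 ± 0.51, adjusted p = 0.267). All 12 rows of Irf2 lay below 0, between -0.58 and -0.09, as Irf2 itself did at -0.26. The 9 rows of Irf8 summed to between 0 and 0.858 CPM per library, including the libraries with most Irf8 RNA, and the 13 rows of Irf4 to between 2.52 and 7.14 CPM. The row of Irf7 stood at 26.9 CPM in URE het Tet2 het replicate 2 and at 0.611 to 10.7 CPM in all other libraries.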

How the data were processed

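The authors deposited 1 table of raw counts per feature for 17 libraries of polyadenylated RNA, with no normalization. Reads were aligned with STAR to GRCm38, per the submitters' processing notes; annotation, counting tool and strand setting are not given in the sources used here. Of 96004 features, 47643 were Ensembl genes, and 47224 matched GENCODE vM21, which gave symbols and exon lengths. Irf1, Irf3, Irf5, Irf7, Irf8 and Irf9 each overlap another annotated gene, so their counts are less certain.

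Genes passing filterByExpr (minimum count 10, minimum total 15; 19951 genes) were tested with edgeR 4.0.16 (R 4.3.3; TMM, robust quasi-likelihood F test) with 6 genotype means over all 17 libraries. P-values are two-sided, Benjamini-Hochberg adjusted over all genes in each of 9 planned comparisons, and called at 0.05. AML against Normal is the mean of the 2 compound groups minus the mean of the 4 others. The SE is the log2 fold change divided by the square root of F. On simulated data for AML against Normal (19951 genes), 15 of 100 genes changed 2-fold and 57 of 100 changed 4-fold were recovered, with 5 false calls.

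The members and 15 gene lists were chosen with earlier results of these data known. Named genes were the members, Spi1, Tet2, passing list members (the 4 smallest p where more passed; those of other blood cell lists are given as counts) and the 3 genes most like each member, among genes averaging 1 log2 CPM or more. Alternatives were DESeq2 1.42.0 and its size factors, no filter, non-robust edgeR, terms for sex and for title number range, each range alone, and leaving out libraries.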

Additional observations from a re-analysis of the deposited data

Results flagged for a closer look

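3 results were picked out because 1 of the 5 AML libraries lay far from the other 4, by the gap to its nearest neighbour relative to the whole range (over 0.71 for 5 libraries). In each the library was URE het Tet2 het replicate 2. It had 48.8 CPM of Irf3, 5.01 CPM of Irf5 and 26.9 CPM in the enh row of Irf7, whose meaning is not given in the sources used here. Sets of 5 values examined this way numbered 15, and chance flags about 1 in 20. The same library had the lowest Irf2 (14.9 CPM) and the largest scaling factor of the 17 (1.25, against 0.881 to 1.08 in the other 16). The part of the scaling in these values was not tested.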

How the results depend on the processing

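Counts of members called changed as follows, and the number of all genes called also changed. In AML against Normal DESeq2 called 3255 of 19951 genes and edgeR 2188. For URE het Tet2 KO it called 1212 genes against Tet2 KO (edgeR 195) and 1013 against URE het (edgeR 71). For URE het Tet2 het against Tet2 het it called 599 (edgeR 0). Fits with the sex term, within 1 number range or by chromosome 2 level leave some genotypes with 1 library, so their counts are weakly founded. In AML against Normal (1 member) the count was 0 with the sex term, 2 with DESeq2, 3 within libraries 8 to 17, 3 within 1 to 7, 2 without the 3 AML libraries of low chromosome 2, 3 with only those 3, and 1 to 2 when single libraries were left out. In URE het Tet2 KO against Tet2 KO (1 member) it was 0 with the sex term, 2 with DESeq2 and 0 to 2 with single libraries left out. URE het Tet2 KO against URE het (0) gave 1 with DESeq2 and 0 to 1 with libraries left out, URE het Tet2 het against Tet2 het (0) gave 1 with DESeq2, URE het Tet2 KO against URE het Tet2 het (0) gave 0 to 1 with libraries left out, URE het against WT (0) gave 1 when only Normal libraries were fitted with a range term, and URE deleted against intact (1) gave 1 to 2 with libraries left out. The count of called enh rows (0) came to 1 with no filter.

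Signs of the log2 fold change in AML against Normal turned for members that were not called. Within libraries 8 to 17 they were 0.32 for Irf7, 0.34 for Irf1 and 0.28 for Irf9; within 1 to 7 they were -0.22 for Irf3 and -1.40 for Irf8. Without the 3 libraries of low chromosome 2 Irf8 was -1.27; with only those 3, Irf2 was 0.030 and Irf9 0.10. Leaving out single libraries gave ranges of -0.31 to 0.11 for Irf9, -0.41 to 0.039 for Irf7 and -0.85 to 0.055 for Irf2. The cause was not tested. Of the alternative values for the fold changes printed here, 392 kept direction and side of the threshold, 15 newly passed it, 7 no longer passed it and 13 changed sign. No paired analysis was possible because the titles number the libraries 1 to 17 and give groups no shared replicate numbers. Irf4, at 1 to 25 counts in AML, is limited by depth.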
